A study of Mus musculus with 4 samples.

Results

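The genes described here are 10 members of the mouse Hippo pathway, taken by symbol from a deposited table of 55401 genes. They are the kinases and scaffold Stk3, Stk4, Lats1, Lats2 and Sav1, the effectors Yap1, Wwtr1, Tead1 and Tead2, and the target Ccn1. Each symbol matched 1 row. The members were chosen by their read counts and FPKM in these same libraries, where the kinase transcripts were present and the effector transcripts nearly absent, so the levels are given as a description with no test. RNA was sequenced from cells that the labels call female germline stem cells, cultured from the ovary of C57BL/6 mice, in 4 libraries. The daidzein group had 2 libraries from cells given daidzein, a soy isoflavone, and the DMSO group had 2 libraries from cells given the solvent. Both groups grew in the same MEM-alpha medium with serum, beta-mercaptoethanol, mouse epidermal growth factor, basic fibroblast growth factor, mouse leukemia inhibitory factor and glial cell line-derived neurotrophic factor. The labels give no dose, duration or animal age. They do not tie the replicates to separate cultures or animals, so each p-value covers only the spread among these 4 libraries, which may be technical.

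The Hippo pathway is a kinase cascade that restrains growth in many epithelia and organs. Stk3 and Stk4, also called MST2 and MST1, bind the scaffold Sav1 and phosphorylate Lats1 and Lats2, which with Mob1 proteins phosphorylate the co-activators YAP (Yap1) and TAZ (Wwtr1) and keep them out of the nucleus. When free to enter, YAP and TAZ bind TEAD transcription factors and switch on genes such as Ccn1. The upstream kinases also work without YAP and TAZ, as Stk4 does in lymphocytes, where it controls adhesion and survival.

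The library totals ran from 16230400 to 18537134 reads counted in genes. A count of 0 allows up to 3 reads in a library, or 0.162 to 0.185 CPM (reads scaled to the library total), and such floors and all counting intervals cover counting error only. The labelled cell type was checked against markers. Of 8 germ cell markers, 7 had at most 3 reads in every library, and Pou5f1, Dppa3 and Figla had 0 reads in all 4. Summed over the 8 genes they stood at 0.465 and 0.108 CPM in the daidzein libraries, against 0.431 and 0.117 CPM in the DMSO libraries. All 8 blood cell markers had a mean of at least 1 FPKM (reads scaled to exonic gene length and to the library total), and together they stood at 1622 and 1613 CPM with daidzein, against 1687 and 1632 CPM with DMSO. Of 6 epithelial markers, 4 had at most 3 reads in every library, and Epcam, Cdh1 and Krt19 among them had 0 reads in all 4. The other two, the keratins Krt8 and Krt18, had reads only with daidzein. Krt8 had 1 and 6 reads and Krt18 1 and 5 reads with daidzein, against 0 and 0 reads of each with DMSO. The 6 markers summed to 0.116 and 0.647 CPM with daidzein, against 0 and 0 CPM with DMSO. Of 7 fibroblast and stromal markers, 5 had at most 3 reads in every library. The 7 summed to 0.698 and 0.270 CPM with daidzein, against 0.185 and 0.935 CPM with DMSO. Of 8 mast cell markers, 3 (Kit, Ms4a2 and Cpa3) had a mean of at least 1 FPKM, and Fcer1a, Tpsb2 and Mcpt4 had 0 reads. Of 5 granulosa markers, 4 had 0 reads in every library, and Amh had 19 to 34 reads per library. Of 4 endothelial markers, 3 had at most 3 reads in every library.

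The promoters of Ccn1, Yap1, Lats2 and Stk4 are shown because they carry the contrast between the target, an effector, the scarce kinase and the abundant kinase. Each window runs from 250 bases before the RefSeq start to 50 after it on GRCm38.p6, printed 5′ to 3′ on the gene's strand. Capitals mark GGAATG, the core letters of the motif that TEAD proteins bind, or CATTCC where it lies on the other strand. They lie at chr3:145649936-145650235 (minus strand) for Ccn1, chr9:8004547-8004846 (minus strand) for Yap1, chr14:57746074-57746373 (minus strand) for Lats2 and chr2:164073888-164074187 (plus strand) for Stk4. The Stk4 and Lats2 windows lie inside the gene, downstream of its start in the deposited table.
Ccn1: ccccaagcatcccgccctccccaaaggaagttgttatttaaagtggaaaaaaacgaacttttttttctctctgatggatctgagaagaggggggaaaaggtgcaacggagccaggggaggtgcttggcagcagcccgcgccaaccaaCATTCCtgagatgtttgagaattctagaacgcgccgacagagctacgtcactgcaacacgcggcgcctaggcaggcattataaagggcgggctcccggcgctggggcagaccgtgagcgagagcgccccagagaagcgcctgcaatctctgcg
Yap1: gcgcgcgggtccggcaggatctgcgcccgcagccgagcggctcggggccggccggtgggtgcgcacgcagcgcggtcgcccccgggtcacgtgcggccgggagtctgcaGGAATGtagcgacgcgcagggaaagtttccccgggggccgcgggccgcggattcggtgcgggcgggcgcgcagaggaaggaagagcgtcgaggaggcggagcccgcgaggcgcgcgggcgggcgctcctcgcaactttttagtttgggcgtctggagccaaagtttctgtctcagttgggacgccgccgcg
Lats2: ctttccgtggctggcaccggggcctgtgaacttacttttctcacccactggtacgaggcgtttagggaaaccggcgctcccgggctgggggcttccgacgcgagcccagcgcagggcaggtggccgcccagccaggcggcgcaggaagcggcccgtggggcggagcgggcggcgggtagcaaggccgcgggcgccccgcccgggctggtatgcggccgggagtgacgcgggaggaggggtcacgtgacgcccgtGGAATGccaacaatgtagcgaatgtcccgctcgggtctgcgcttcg
Stk4: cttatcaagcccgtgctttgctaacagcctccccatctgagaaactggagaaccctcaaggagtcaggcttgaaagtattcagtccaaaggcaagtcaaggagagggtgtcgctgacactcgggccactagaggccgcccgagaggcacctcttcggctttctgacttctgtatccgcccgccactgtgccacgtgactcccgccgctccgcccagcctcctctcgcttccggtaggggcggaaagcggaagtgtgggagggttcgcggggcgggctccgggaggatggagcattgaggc

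RefSeq had a promoter window for 8 of the 10 members. The motif was present on either strand in 5 of the 8, namely Lats2, Sav1, Yap1, Wwtr1 and Ccn1, and was not found in the windows of Stk4, Lats1 and Tead2. Of all 32851 promoter windows in the RefSeq table, 14.7% held it. That share counts windows, while the 5 of 8 counts genes with a match in any of their windows, 10 in all. The other Lats2 window held 0 matches, and the overlapping windows of Wwtr1 share their match. In Ccn1 the letters begin 103 bases before the start, in Yap1 141 bases before it and in Lats2 4 bases after it. A match is a run of letters and not a measured binding site.

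**Figure D1:**
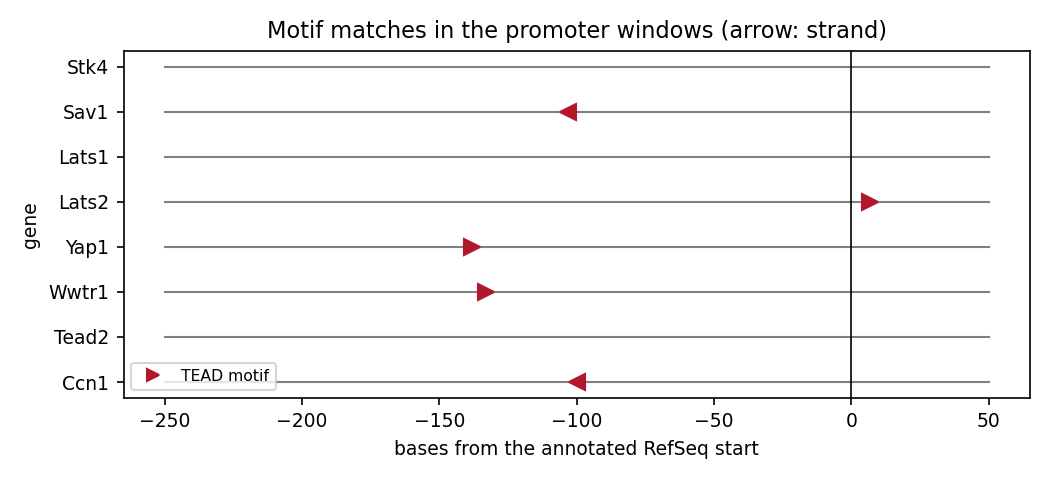
Positions of the TEAD motif letters GGAATG (arrow to the right) or CATTCC (arrow to the left) in the promoter windows of 8 members, in bases from the RefSeq start, with the first listed window of each gene. Lats2, Sav1, Yap1, Wwtr1 and Ccn1 each carry 1 match, and Stk4, Lats1 and Tead2 carry none.

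All 5 kinase and scaffold genes were detected in every library, and 4 of them had a mean of at least 1 FPKM, as did 51.4% of the 19575 genes with a read. Stk4 (ENSMUSG00000018209; GRCm38 chromosome 2, 164070322 to 164155524, plus strand), the upstream kinase best known from blood cells, was the most abundant. It stood at 24.93 and 23.77 FPKM in the daidzein libraries, against 23.29 and 24.92 FPKM in the DMSO libraries, from 2215 to 2582 reads per library. The groups overlapped, and Stk4 held 56.4% of the FPKM summed over the 5 genes. Its mean level was above that of 87.0% of the genes with a read.

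Stk3 (ENSMUSG00000022329; chromosome 15, 34875496 to 35178921, minus strand), the close relative of Stk4, stood at 3.62 and 3.51 FPKM with daidzein, against 2.90 and 3.25 FPKM with DMSO. Both daidzein libraries lay above both DMSO libraries. Within a library, Stk4 was 6.77 to 8.02 times as abundant as Stk3 per length. Sav1 (ENSMUSG00000021067; chromosome 12, 69965012 to 69987002, minus strand), the scaffold that joins these kinases to Lats1 and Lats2, stood at 7.44 and 7.22 FPKM with daidzein, against 8.12 and 7.24 FPKM with DMSO. The Sav1 values of the groups overlapped.

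Lats1 (ENSMUSG00000040021; chromosome 10, 7681214 to 7716460, plus strand), a kinase that acts directly on YAP and TAZ, stood at 7.23 and 8.02 FPKM with daidzein, against 7.26 and 8.29 FPKM with DMSO. The groups overlapped, and the replicate 2 library was the higher of each group. Lats2 (ENSMUSG00000021959; chromosome 14, 57689662 to 57758388, minus strand), its relative and in human cells also a YAP target, was scarce. It had 42 and 25 reads with daidzein, or 0.35 and 0.19 FPKM, against 22 and 13 reads with DMSO, or 0.19 and 0.11 FPKM. Daidzein replicate 1 was the highest library and DMSO replicate 2 the lowest, while daidzein replicate 2 and DMSO replicate 1 were level per length and depth. Lats1 was 20.6 to 76.1 times as abundant as Lats2 across the 4 libraries. Pooled over the libraries, Lats2 stood at 0.212 FPKM with a 95% exact Poisson interval of 0.173 to 0.257.

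Shared sequence makes the counts of Lats2 and Sav1 less certain than those of the other members. Of the distinct 50-base stretches in annotated Lats2 transcripts, 41.2% also occur in Gm49361, a gene that overlaps Lats2 on the same strand and was listed at 0 reads in every library. For Sav1, 24.7% also occur in Atl1, which lies on the opposite strand and had 12 to 17 reads per library. Reads from such stretches can be left out or split between genes, and the labels do not say how they were handled. If none of them were counted, Lats2 would stand at 0.360 FPKM and Sav1 at 9.95 FPKM over the 4 libraries. The share was at most 1.35% for each of the other 8 members, the 4 effectors included. Stk4, with a share of 0%, overlaps Tomm34, a gene on the opposite strand with 837 to 984 reads per library. The part of Tomm34 in the Stk4 reads was not tested.

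The effectors were close to 0. Yap1 (ENSMUSG00000053110; chromosome 9, 7931999 to 8004596, minus strand), which encodes YAP, had 0 and 0 reads in the daidzein libraries, against 1 and 0 reads in the DMSO libraries. Wwtr1 (ENSMUSG00000027803; chromosome 3, 57455649 to 57575910, minus strand), which encodes TAZ, had the same counts, with its 1 read also in DMSO replicate 1. Over 69079236 reads, the 1 read of Yap1 gives an upper 95% exact Poisson limit of 0.00871 FPKM, and that of Wwtr1 0.0169 FPKM.

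Tead1 (ENSMUSG00000055320; chromosome 7, 112679318 to 112906807, plus strand) had 1 and 0 reads with daidzein, against 0 and 0 reads with DMSO. Tead2 (ENSMUSG00000030796; chromosome 7, 45215753 to 45233644, plus strand) had 0 and 8 reads with daidzein, against 0 and 3 reads with DMSO. Tead2 reads were present only in the replicate 2 library of each group, and daidzein over DMSO gave 2.49 per depth (95% interval by the exact binomial method 0.597 to 14.6). Tead2 overlaps Cd37, a leukocyte gene on the opposite strand with 941 to 1068 reads per library, and the strand setting of the counting is not known. The part of Cd37 in the 11 reads was not tested. Daidzein replicate 2, with 8 of them, was also the library with the most Krt8 and Krt18 reads, and the part of epithelial cells in the Tead2 reads was not tested. With Tead3 and Tead4, the Tead genes outside the member list, all 4 Tead genes had 3 and 11 reads with daidzein, against 5 and 8 reads with DMSO.

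Ccn1 (ENSMUSG00000028195; chromosome 3, 145646976 to 145649981, minus strand), which encodes a secreted matrix protein induced by YAP and TAZ, had 0 and 3 reads with daidzein, against 2 and 3 reads with DMSO. That is 0.00 and 0.08 FPKM with daidzein, against 0.06 and 0.09 FPKM with DMSO. No library had more than 3 reads, so no fold is given for Ccn1. Markers of epithelium and stroma, where YAP and TAZ are often active, each summed to under 1 CPM in every library, and their part in the effector levels was not tested. In these bulk samples, fewer cells that make a transcript and less of it per cell cannot be told apart.

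**Figure D2:**
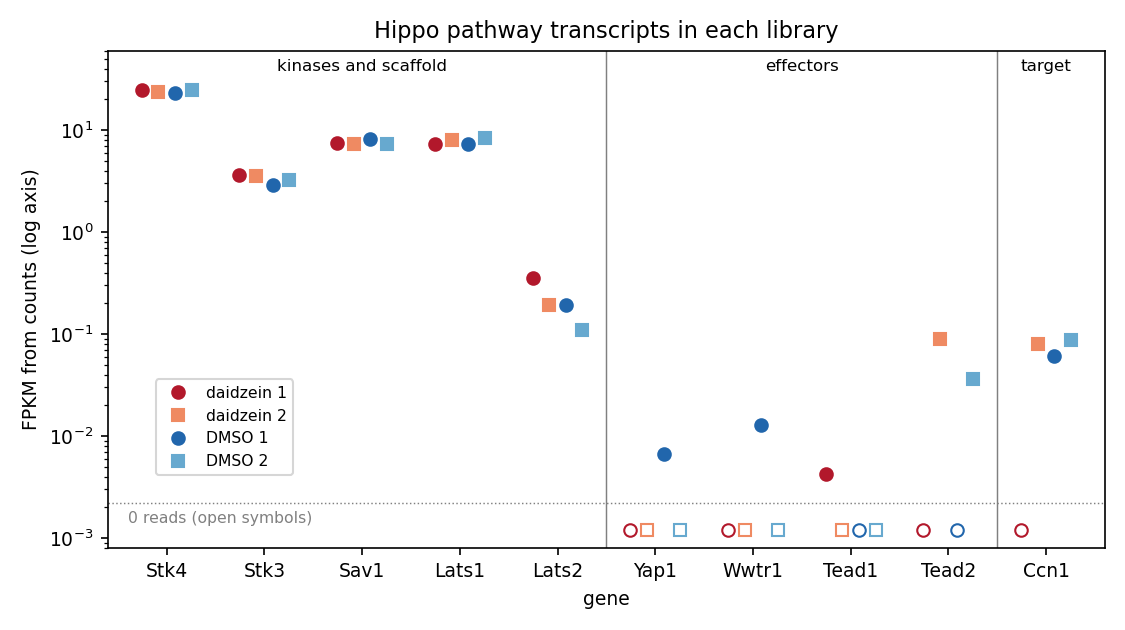
FPKM of the 10 members in each library, computed from the counts with unrounded values, on a log axis with daidzein libraries left of DMSO libraries for each gene. Open symbols below the dotted line had 0 reads. Stk4 sits near 24 FPKM in all 4 libraries, and each effector library sits below the lowest Lats2 library.

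Set side by side, the 5 kinase and scaffold genes had 4514 and 4795 reads in the daidzein libraries, against 4079 and 4541 reads in the DMSO libraries. The 4 effectors had 1 and 8 reads with daidzein, against 2 and 3 reads with DMSO. Pooled, effector reads were 0.0780% of the reads of both sets, 14 beside 17929, with a 95% exact Clopper-Pearson interval of 0.0427% to 0.131%. Per length, the kinase and scaffold sum was 1104 times the effector sum over the 4 libraries. The mean of the log2 ratio was 10.87 ± 1.86 (SD, n = 4). It was 13.31 in daidzein replicate 1, with 1 effector read, and 8.89 in daidzein replicate 2, with 8, against 11.06 and 10.23 in the DMSO libraries. The effector counts set this spread, since the kinase and scaffold sum stayed at 43.6 and 42.7 FPKM with daidzein, against 41.8 and 43.8 FPKM with DMSO.

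In order of mean FPKM, the kinase and scaffold genes ran Stk4, Lats1, Sav1, Stk3 and Lats2. Lats1 at 7.70 and Sav1 at 7.51 FPKM did not differ beyond their spread, as their library values overlapped, and every other pair of neighbours kept apart in all 4 libraries. Below them came Ccn1 and Tead2, with overlapping counting intervals of 0.0248 to 0.113 and 0.0166 to 0.0595 FPKM. Wwtr1, Yap1 and Tead1, with 1 read each, could not be ordered.

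The rest of the pathway was described with 75 further genes in 5 lists by role, genes with 0 reads included. Of all 55401 genes in the table, 10064 had a mean of at least 1 FPKM and 35.3% had a read. Of the genes with a read, 26.5% had at most 3 reads in every library. The upstream and co-activator list had 15 of 21 genes at a mean of at least 1 FPKM. Mob1a, the co-activator of Lats kinases, stood at 44.72 and 49.19 FPKM with daidzein, against 45.79 and 47.79 FPKM with DMSO. Map4k1, a kinase of blood cells from a family that can phosphorylate Lats kinases, averaged 36.1 FPKM. Nf2, the membrane-linked activator known as merlin, averaged 25.9 FPKM, and Taok3, a kinase of a family that activates Stk3 and Stk4, 12.0 FPKM. Fat4 and Dchs1, large cadherins whose fly relatives feed into the pathway, had 0 reads in every library, as did Tnik.

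Components that oppose the kinases were present too. The list of inhibitors, made of the STRIPAK phosphatase complex and the Ajuba family, had 10 of 12 genes at a mean of at least 1 FPKM. The phosphatase 2A subunits Ppp2r1a, Ppp2ca and Ppp2cb averaged 96.2, 54.5 and 43.6 FPKM. Wtip had 0 reads. Of 5 relatives of the kinases, Stk24 averaged 31.5, Stk25 8.30, Stk38, which also binds Mob1 proteins, 5.34 and Stk38l 1.32 FPKM, while Stk26 had 0 reads.

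Among 19 partners and regulators of the effectors, 8 had a mean of at least 1 FPKM and 8 had at most 3 reads in every library. The present ones include Csnk1d and Fbxw11, a kinase and a ubiquitin ligase subunit that act in YAP degradation, at 35.1 and 27.2 FPKM. Runx3 and Runx1, transcription factors of blood cells that can bind YAP and TAZ, averaged 24.8 and 11.1 FPKM. Vgll1 and Vgll2, TEAD cofactors, and Amot, a YAP-binding junction protein, had 0 reads. Of 22 YAP and TAZ target genes known from human cancer cells, counting Lats2 and Ccn1, 6 had a mean of at least 1 FPKM and 8 had at most 3 reads in every library. Asap1, Nuak2, Dock5 and Gadd45a were highest, at 7.12, 6.15, 4.87 and 4.68 FPKM, and these genes have many other regulators.

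**Figure D3:**
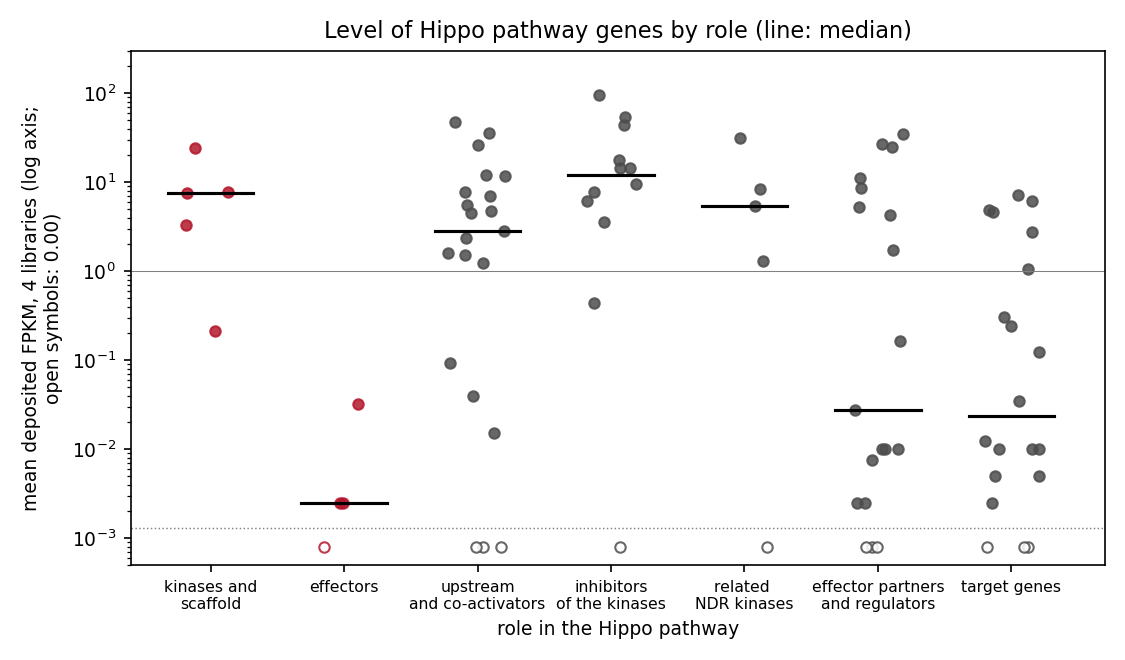
Mean deposited FPKM over the 4 libraries, on a log axis, of the 5 kinase and scaffold genes and 4 effectors (red) and of 75 further Hippo genes by role (grey; 2 genes stand in both of the last 2 columns). Black lines are medians and open symbols are genes at 0.00. The medians are 7.51 for kinases and scaffold, 12.0 for inhibitors of the kinases and 0.00250 for effectors.

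By a fixed measure, the root mean square difference of log2(FPKM + 0.01) over the 4 libraries, each kinase was matched with the most like of the 75 further genes. The difference was 0.04 between Stk4 and Runx3, 0.05 between Lats1 and Sike1, a component of the STRIPAK complex, and 0.11 between Sav1 and Rassf1, which shares with Sav1 the domain that binds Stk3 and Stk4. It was 0.18 between Stk3 and Strn, a STRIPAK scaffold, and 0.64 between Lats2 and Arhgef17. These are likenesses of level in 4 libraries.

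The comparison of daidzein with DMSO asks which transcripts differ with the isoflavone, and the choice of members did not use it. Of the 10 members, 5 had enough reads to test, and 0 of the 5 passed edgeR's quasi-likelihood test at a Benjamini-Hochberg adjusted p of 0.05 over 11700 genes. Over all genes tested 0.0171% were called, which is 2 genes that fell, Fos and Fosb. At an unadjusted p under 0.05 there were 0 of the 5 by edgeR and 0 by DESeq2, against 2.91% of all genes tested by edgeR, or 341 of 11700, and 81 of 11700 by DESeq2. With the replicate number as a block in edgeR, 2 of the 5, Stk3 and Lats2, were under it, beside 748 of 11700 genes. Of the 5, 3 were higher and 2 lower with daidzein, with a median log2 difference of 0.01, against -0.0027 over all genes tested. The effectors and Ccn1 were below the filter on low counts, so the main fit did not test them. Without the filter all 10 members were fitted and 0 were called. A small difference in the effectors or Ccn1 was not detectable at this depth.

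Stk4 averaged 143 ± 5.91 normalized CPM with daidzein and 141 ± 6.02 with DMSO (SD, n = 2 each). The fold of daidzein over DMSO was 1.01 (95% interval 0.922 to 1.11). Lats1 averaged 55.6 ± 3.66 with daidzein and 56.7 ± 4.99 normalized CPM with DMSO, a fold of 0.981 (0.871 to 1.10). Sav1 averaged 38.6 ± 1.08 with daidzein and 40.5 ± 3.48 normalized CPM with DMSO, a fold of 0.954 (0.840 to 1.08). The adjusted p was 1.00 for each of these 3 genes by edgeR.

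Stk3 averaged 21.8 ± 0.612 with daidzein and 18.8 ± 1.40 normalized CPM with DMSO (SD, n = 2 each). Its fold was 1.16 (95% interval 0.987 to 1.36), with an adjusted p of 1.00 by edgeR. It was the 1 of the 5 tested members whose groups did not overlap in either direction. Of all genes tested, 14.7% had both daidzein libraries above both DMSO libraries, and 15.0% had both below. Lats2 averaged 1.90 ± 0.788 with daidzein and 1.06 ± 0.427 normalized CPM with DMSO, a fold of 1.79 (0.988 to 3.23) with an adjusted p of 1.00 by edgeR. Without daidzein replicate 1 the log2 difference of Lats2, 0.84, was 0.35, without DMSO replicate 2 it was 0.47, and without DMSO replicate 1 it was 1.31.

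**Figure D4:**
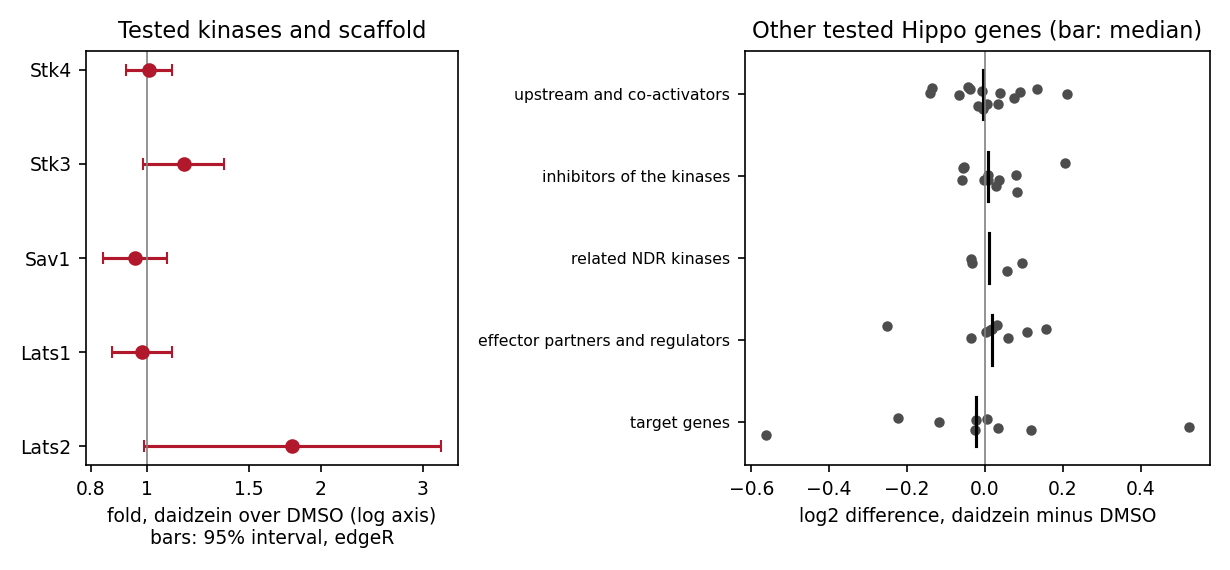
Left, fold of daidzein over DMSO for the 5 tested members, on a log axis, with 95% intervals from edgeR, all of which include 1. Right, log2 difference of daidzein minus DMSO for the other tested Hippo genes by role, with the median of each role as a bar.

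Among the 75 further Hippo genes, 48 had enough reads to test, and 0 rose and 0 fell by edgeR, with 0 at an unadjusted p under 0.05 and 0 called by DESeq2. Over all genes tested, edgeR called 0.0171%, and 2.91% were at an unadjusted p under 0.05. With the replicate number as a block in edgeR, 2 of the 48 were under 0.05 unadjusted, beside 748 of 11700 genes. Without a filter on low counts it was 1 of 64, beside 530 of 19575 genes. Of the 48 tested Hippo genes, 27 were higher and 21 lower with daidzein. Their median log2 difference was 0.0064, against -0.0027 over all genes tested. By role, 7 of 15 upstream and co-activator genes were higher, as were 7 of 11 inhibitors, 2 of 4 related kinases, 7 of 9 effector partners and 4 of 9 target genes, beside 5697 higher and 6003 lower of all 11700 genes tested. The smallest p of each list belonged to Taok3 at a fold of 1.10 (95% interval 0.996 to 1.21), Slmap, a STRIPAK protein, at 1.06 (0.957 to 1.17), Stk25 at 1.04 (0.929 to 1.16), Btrc, a ubiquitin ligase subunit, at 1.11 (0.960 to 1.29) and Fjx1 at 1.44 (0.742 to 2.78). Transcript levels do not measure the phosphorylation through which the pathway signals.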

How the data were processed

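RNA sequencing of 4 libraries was used, 2 per group, grouped by titles and treatment labels. Tools listed in the submitters' processing notes are DESeq2, HTSeq 0.6.1 and HISAT2 2.0.1, beside the build mm9, and the notes give them no role. The coordinates match GRCm38, since 99.61% of 55141 genes start where GENCODE M21 has them. The authors deposited 1 table, with raw counts per gene as whole numbers and with FPKM that they computed. FPKM equalled count over exonic length and library total within 0.0051 for 100% of 65326 values above 0. The sources used here state no strand setting.

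The test was that of edgeR 4.0.16 under R 4.3.3 (TMM, default filterByExpr, quasi-likelihood F test), after a test on simulated data. Normalized CPM are scaled by TMM. DESeq2 1.42.0 and limma 3.58.1 on FPKM were alternatives. Shared 50-base stretches were searched in GENCODE M21 transcripts, on both strands. The members and lists were chosen with earlier results of these data known. Named genes are all members, the 4 of each list with the highest mean FPKM, the one with the smallest p and the most like gene of each kinase, while genes named at 0 reads and the motif were chosen after values or sequences were seen. The result of 1 gene that this rule names is not reported here. All 6 pairs of libraries differed by more than sampling noise, with a chi-square per degree of freedom of 2.23 to 4.81.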

Additional observations from a re-analysis of the deposited data

How the results depend on the processing

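The alternatives were DESeq2, upper quartile normalization, no filter or a filter of 5 CPM, the replicate number as a block, limma trend on FPKM with 2 pseudocounts and each library left out. In each of them 0 of the tested members and 0 of the other Hippo genes were called. The count of all genes called, 2, was 1 by DESeq2, 11 without a filter, 1 with 5 CPM, 0 by limma with either pseudocount and 4 to 17 when 1 library was dropped, which assumes that a library alone in its group varies as the other group does. With the replicate block it was 27, with 0 members among them. At an unadjusted p under 0.05 by edgeR there was 1 of 10 members without a filter, beside 530 of 19575 genes. With the block there were 2 of 5 members, beside 748 of 11700 genes. Deviations of libraries with the same number correlated at 0.14 across genes, with just 2 pairs, and no label ties the numbers to a culture or day, so they were not taken to pair the libraries. The chi-square per degree of freedom was 3.51 between both replicates 1 and 2.23 between both replicates 2, against 4.38 within daidzein and 4.17 within DMSO. The numbers may therefore carry a shared difference, whose source was not tested. Of 108 recomputed differences of 10 genes, 5 changed direction, all with a library left out and none past the threshold. Stk4 then ran from -0.0279 to 0.0611, Lats1 from -0.113 to 0.0680 and Sav1 from -0.151 to 0.0225. The log2 ratio of kinases to effectors, 10.87, ran from 9.67 without Stk4 to 11.53 without daidzein replicate 2, and was 10.73 with CPM. It could not be had without Tead2, which left 0 effector reads in 2 libraries. Lengths without shared stretches, chosen after seeing the data, moved it by less than its SD. Counts of 0 to 11 reads set the precision of every effector value.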

Other observations

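Some symbols in the deposited table can be mistaken for Hippo members. The row named Taz, with 209 to 254 reads per library and 906 in all, is described there as tafazzin, a mitochondrial lipid enzyme, and is not the TAZ of the Hippo pathway, whose row Wwtr1 has 1 read. The row named Mst1, with 4 to 6 reads per library, is described as macrophage stimulating 1, and is not the kinase MST1, whose row Stk4 has 9809 reads. The deposited annotation assigns hippo signaling to both rows all the same. A search of that annotation or of common names would therefore list a Taz row with reads, where the gene of the Hippo effector has nearly none.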
